A study of Mus musculus with 10 samples.

Results

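The genes described here carry the signal of the T cell receptor from the membrane to the nucleus, together with the costimulatory receptor CD28 and the enzymes that hold the pathway back. They were chosen as a list of 38 named genes, of which 36 were read on these arrays, out of 18194 genes with a probe set annotated to 1 gene. Lck and Nfkb1 were not analysed here. The probe set of a gene that was brightest on average stood for that gene, and all 36 passed the filter on dim probe sets that left 11939 genes for testing. Values are log2 levels, so that a difference of 1 is a 2-fold change.

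T cell receptors have no kinase of their own. When they bind antigen, Lck phosphorylates the CD3 and CD247 chains, Zap70 docks there and phosphorylates the scaffolds Lat and Lcp2, and the assembled complex activates Plcg1, whose products open the calcium, protein kinase C and Ras branches. Those branches end in the transcription factors NFAT, NF-kappaB and AP-1. In regulatory T cells, which carry the factor Foxp3, receptor signals are needed both for their development and for suppression.

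RNA of CD4 T cells sorted from pooled lymph nodes and spleen of female mice aged 6 to 8 weeks was measured on 10 Affymetrix arrays, 1 for each of 10 groups. From Foxp3(gfp/gfp) mice, whose Foxp3 protein is fused to green fluorescent protein (GFP), came GFP-negative CD25-negative cells (CD25neg), GFP-negative CD25-positive cells (CD25pos) and GFP-positive cells (GFPfoxp3). From Foxp3(gfpko/wt) females, in which the gfpko allele makes GFP and no Foxp3, came GFP-positive cells (GFPko). Those mice also keep normal Foxp3-positive cells, since the gene is X-linked and each cell uses 1 allele. They were backcrossed to C57BL/6 for 5 generations, and the gfp/gfp mice for 8 to 10. CD25pos, GFPko and GFPfoxp3 were sampled a second time after IL-2 treatment in vivo. The mice had 4 injections within 24 h, each of 50 ng per g, and cells were isolated 30 min after the last. Those groups are written with "after IL-2". The labels of untreated groups do not say whether the mice received vehicle. The remaining 3 arrays came from C57BL/6 CD25-positive CD4 cells that were stimulated in culture through CD3 and CD28 with IL-2, and infected with the retrovirus MigR1. The vector was empty or carried either PDE3B, an enzyme that degrades cAMP, or its H801A mutant. Cultures held over 70% Foxp3-positive cells. Infected cells were mixed with CD25-negative cells carrying the same vector and moved into mice lacking T cell receptor alpha, hosts without alpha beta T cells of their own. After 3 weeks, GFP-positive GITR-positive CD4 cells of the CD25-positive donors were sorted.

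Markers of the labelled cell type were high. Cd4 was at 10.30 to 10.78 in the 7 sorted groups and lower, at 8.05 to 9.29, in the 3 transduced ones. On the 10 arrays Cd3e, Cd3d and Cd3g lay between 11.56 and 12.89, while Cd8a, a CD8 chain that CD4 cells lack, lay between 3.13 and 3.30, next to the array medians of 3.04 to 3.22. The other CD8 chain, Cd8b1, was above the medians on all 10 arrays, at 3.69 to 5.53, with its highest values in GFPko after IL-2 and in CD25neg (5.05). Foxp3 was at 2.45 to 3.90 in the GFP-negative cells, at 8.33 and 9.40 in GFPko, at 10.86 in both GFPfoxp3 groups and at 11.26 to 11.52 in the transduced cells. For Actb the gap between the 3′ and the 5′ control probe set, larger in shortened RNA or copies of it, was 2.70 to 3.80 in the 7 sorted groups and 5.87 to 6.38 in the transduced ones. No group has a second array, which limits the precision of all values. The limma test used below takes its spread from the unlike responses of 3 populations to IL-2. It pools the spread of each gene, with 2 degrees of freedom, with a prior from all genes worth 2.23. A p-value here sets a difference against these unlike responses and does not say how repeatable it is between animals.

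**Figure D1:**
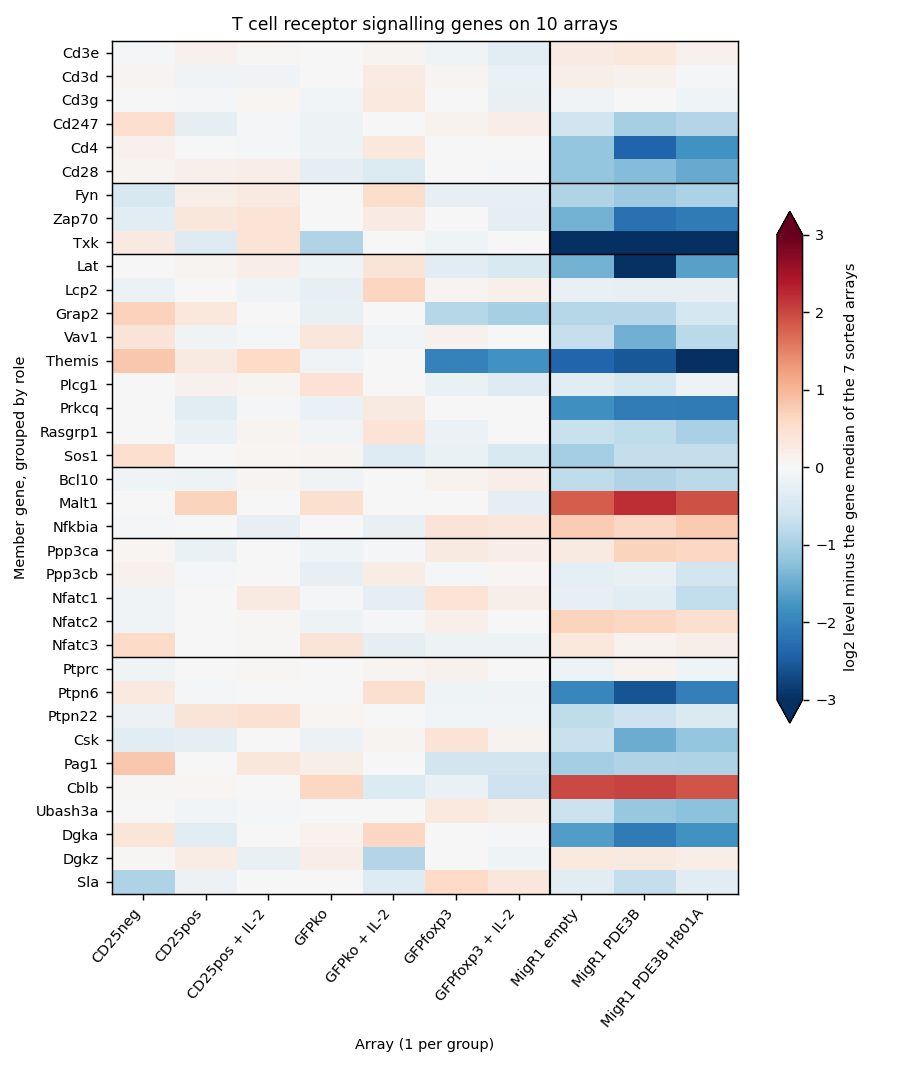
Heat map of the 36 member genes (rows, grouped by role) on 10 arrays (columns, 1 per group). Colour is the log2 level minus the gene's median over the 7 sorted arrays left of the thick line. Among the sorted arrays Themis stands out as low in both GFPfoxp3 columns, and the 3 transduced columns differ from the rest at many genes.

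Most of the pathway was level across the sorted populations. Over the 7 sorted arrays, 28 of the 36 members spanned less than 1 log2 unit from their lowest to their highest array, and the median span was 0.71, beside 71.8% of all genes and a median span of 0.69. The members therefore varied about as much as genes at large. The 8 members with wider spans were Fyn, Txk, Grap2, Themis, Pag1, Cblb, Dgkz and Sla. Ptprc, the phosphatase CD45 that keeps Lck ready for activation, had the smallest span over all 10 arrays, from 14.07 to 14.35, on its brightest probe set. Its other probe set, 1440165_at, ran from 7.46 to 10.57, with differences of -1.28 between GFPfoxp3 and GFPko (limma adjusted p = 0.117) and -1.11 between GFPfoxp3 and CD25pos (adjusted p = 0.153), and its transduced arrays lay above all sorted ones.

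Themis is an adaptor made in T cells that binds Grb2 and Lat complexes and tunes receptor signals, best known for its part in thymic selection. It was the member with the largest difference between sorted populations. Its level was 10.25 in CD25neg, 9.70 in CD25pos and 10.03 after IL-2, 9.33 in GFPko and 9.44 after IL-2, and 7.41 in GFPfoxp3 and 7.63 after IL-2. Both GFPfoxp3 arrays lay below all 5 other sorted arrays, and the GFPko arrays, whose cells read the Foxp3 locus without making the protein, lay just under the GFP-negative cells. In limma's additive model of population and IL-2, Themis was 3.64-fold lower in GFPfoxp3 than in GFPko cells (log2 difference -1.86, SE 0.107, adjusted p = 0.00812), lower in both pairs of arrays. Against CD25pos it was 5.08-fold lower (-2.35, SE 0.107, adjusted p = 0.00517), again in both pairs. Between GFPko and CD25pos the difference was -0.48 (SE 0.107, adjusted p = 0.107) and did not pass.

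Themis is read by 4 probe sets, and all were lower in GFPfoxp3 cells. Besides the brightest, 1436423_at, the probe set 1443192_at gave 6.34 and 5.92 in CD25pos, 6.27 and 5.93 in GFPko and 4.82 and 4.96 in GFPfoxp3 cells, each untreated and after IL-2. Tested on its own among all probe sets it was lower by -1.21 against GFPko (limma adjusted p = 0.0448) and by -1.24 against CD25pos (adjusted p = 0.0412). The dimmer 1439719_at and 1442022_at were lower by -1.29 and -1.2 against GFPko (adjusted p = 0.0607 and 0.0554) and by -1.86 and -1.85 against CD25pos (adjusted p = 0.0309 and 0.0261). On the GFPfoxp3 arrays both were near or under the array medians, so the sizes there are partly set by background. With any 1 of the 4 arrays of the GFPko comparison left out, Themis kept a difference of -1.78 to -1.94 but its adjusted p rose to 0.0592 without the GFPko array after IL-2, 0.0627 without the untreated one, 0.0873 without untreated GFPfoxp3 and 0.0967 without GFPfoxp3 after IL-2. Against CD25pos it passed without either CD25pos array and missed the threshold without untreated GFPfoxp3 (0.0639) or GFPfoxp3 after IL-2 (0.0644). Each such fit has 1 residual degree of freedom.

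Grap2, the adaptor Gads that bridges Lat to Lcp2, was the other member called. Its level was 5.99 in CD25neg, 5.61 in CD25pos and 5.30 after IL-2, 5.07 in GFPko and 5.29 after IL-2, and 4.44 in GFPfoxp3 and 4.29 after IL-2. GFPfoxp3 was again the lowest population, without overlap with the other sorted arrays. The difference from CD25pos was -1.09 (2.13-fold, SE 0.160, limma adjusted p = 0.0327), lower in both pairs of arrays, and that from GFPko was -0.82 (SE 0.160, adjusted p = 0.0630). This gene is dim, and its other probe set was flat at 3.87 to 4.15 on all 10 arrays. The call ended with the mean of both probe sets (-0.59, adjusted p = 0.0636), with no filter on dim genes (0.0864), and without untreated CD25pos (0.176), CD25pos after IL-2 (0.106), untreated GFPfoxp3 (0.20) or GFPfoxp3 after IL-2 (0.209). Over these and the other alternatives tried, its adjusted p ranged from 0.00657 to 0.209.

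**Figure D2:**
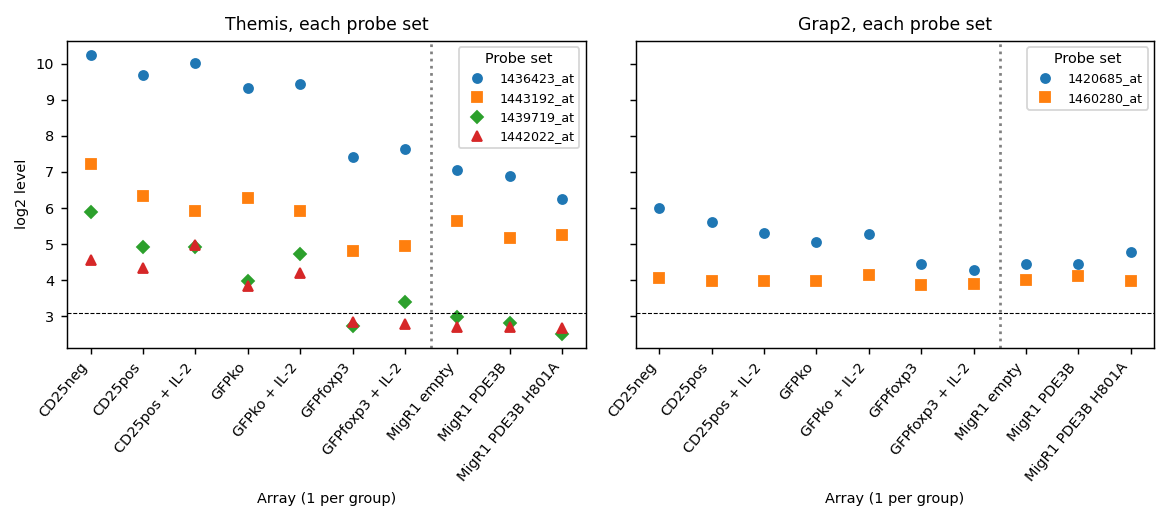
Log2 level of each probe set of Themis (left) and Grap2 (right) on the 10 arrays, with the transduced arrays right of the dotted line and the mean of the array medians dashed. All 4 Themis probe sets are lowest among the sorted arrays in the GFPfoxp3 pair. The brighter Grap2 probe set falls there to 4.44 and 4.29. The dimmer one is nearly flat, at 3.87 and 3.90 there against 3.97 to 4.15 on the other sorted arrays.

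The 250 bases before the annotated starts of these 2 genes are shown because they were the members called between populations. They are from RefSeq's GRCm38.p6 promoter table, in which 29 of the 36 members had an entry, and are printed 5′ to 3′ on the plus strand, which is the strand of both genes. Capitals mark the core forkhead motif TGTTTAC, the family of Foxp3, and the RUNX motif TGTGGTT, both searched on both strands with no overlap between them in these stretches. Themis has 2 starts in the table, and the upstream one is shown, at chr10:28668110-28668359. The Grap2 stretch is chr15:80623233-80623482.
Themis: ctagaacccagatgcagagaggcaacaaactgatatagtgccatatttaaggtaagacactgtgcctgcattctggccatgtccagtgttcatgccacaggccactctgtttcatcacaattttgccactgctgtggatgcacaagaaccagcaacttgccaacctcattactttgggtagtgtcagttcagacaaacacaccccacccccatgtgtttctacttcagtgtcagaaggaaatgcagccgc
Grap2: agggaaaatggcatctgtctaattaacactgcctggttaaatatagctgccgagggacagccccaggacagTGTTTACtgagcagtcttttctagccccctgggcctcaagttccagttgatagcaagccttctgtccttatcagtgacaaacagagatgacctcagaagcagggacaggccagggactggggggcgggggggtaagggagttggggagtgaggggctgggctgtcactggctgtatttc
Neither motif was found in the Themis stretch, and the Grap2 stretch holds 1 forkhead match. The forkhead motif was present in 3.17% and the RUNX motif in 4.40% of the 32851 stretches of this length in the table. Among the 29 members with an entry, Grap2, Nfatc2 and Nfatc3 held the first and Txk the second. A member was counted if any of its starts held a match. The shares count single stretches, so the 2 measures are not alike. A match is a description of letters and not of binding, which was not measured.

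No gene of the receptor itself passed the adjusted test between populations. CD3 chains and CD247, the zeta chain, pass the signal inward, Cd4 is the co-receptor that brings Lck and was used in the sort, and Cd28 gives the costimulatory signal. None of these 6 was called in any contrast. On the chosen probe sets their differences between the 3 fitted populations ran from -0.52 to 0.32. Cd3e was at 11.84 in CD25neg, 12.03 and 11.93 in CD25pos, 11.89 and 11.98 in GFPko and 11.75 and 11.56 in GFPfoxp3 cells, untreated and after IL-2. GFPfoxp3 held the 2 lowest values, 0.32 below CD25pos (SE 0.116, limma adjusted p = 0.187). Cd4 lay between 10.30 and 10.78 on the 7 sorted arrays, and those of the different populations overlapped. Cd28 was highest in CD25pos cells at 11.68 and 11.71 and lowest in GFPko at 11.23 and 11.11, a difference of -0.52 (SE 0.100, adjusted p = 0.0844). Its second probe set, 1417597_at, was instead lowest in GFPfoxp3 at 9.69 and 9.76, beside 10.34 and 9.86 in GFPko, so the sign of the difference between these populations turned with the probe set (0.32 and -0.37).

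The proximal kinases Zap70, Fyn, a Src kinase like Lck, and Txk, a kinase of the Tec family that acts on Plcg1, were not called either. Zap70 was at 9.83 in CD25neg, 10.51 and 10.57 in CD25pos, 10.15 and 10.40 in GFPko and 10.16 and 9.90 in GFPfoxp3 cells. CD25pos thus held its highest values, 0.51 above GFPfoxp3 (SE 0.158, limma adjusted p = 0.145). Txk was at 7.0 in CD25neg, 6.36 and 7.14 in CD25pos, 5.83 and 6.75 in GFPko and 6.60 and 6.74 in GFPfoxp3 cells. Its lowest value was in untreated GFPko, and the populations overlapped.

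Adaptors and membrane effectors held both calls, and all 9 measured members had a negative difference between GFPfoxp3 and GFPko cells, from -1.86 for Themis to -0.03 for Prkcq, the protein kinase C that leads to NF-kappaB. Against CD25pos 6 of the 9 were negative, and over all genes 6101 of 11939 differences from GFPko were positive. Signs could also turn between pairs of arrays or probe sets. Untreated Lcp2 was at 11.66 in GFPfoxp3 and 11.33 in GFPko, and Rasgrp1 differed by 0.31 from GFPko on 1450143_at. Only Themis passed the test against GFPko, and counts of signs of uncalled genes are given as description. Lat, the membrane scaffold, was at 11.83 in CD25neg, 11.92 and 12.04 in CD25pos, 11.69 and 12.22 in GFPko and 11.52 and 11.38 in GFPfoxp3 cells. The GFPfoxp3 values were the lowest of the 7, with differences of -0.51 from GFPko (SE 0.188, limma adjusted p = 0.196) and -0.53 from CD25pos (SE 0.188, adjusted p = 0.185). Plcg1, the phospholipase that makes the second messengers, differed by -0.51 and -0.41 in the same comparisons (adjusted p = 0.109 and 0.161). The other adaptor-level members were Lcp2 (the scaffold SLP-76), Vav1 (an exchange factor for Rac), Rasgrp1 and Sos1 (activators of Ras) and Prkcq. They differed by -0.36 to 0.27 among the 3 populations on the chosen probe sets, with no call.

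Of the downstream branches, Nfkbia, the inhibitor that holds NF-kappaB in the cytoplasm and is itself induced by NF-kappaB, lay highest in GFPfoxp3 among sorted cells, at 14.14 and 14.10 against 13.68 in CD25neg, 13.76 and 13.51 in CD25pos and 13.75 and 13.53 in GFPko. These groups did not overlap, but the difference of 0.48 from either fitted population did not pass (SE 0.108, limma adjusted p = 0.0798 against CD25pos and 0.0817 against GFPko). A second probe set, 1448306_at, gave 12.15 and 12.0 in GFPfoxp3 and at most 11.42 in the other sorted groups. Of the 3 further probe sets, 1449731_s_at was also highest in GFPfoxp3, 1420088_at overlapped (13.48 and 13.22, beside 13.24 in untreated GFPko), and 1420089_at showed no rise (0.16 against GFPko and -0.03 against CD25pos). Malt1, the protease that works with Bcl10, was at 8.41 and 7.75 in CD25pos, 8.24 and 7.73 in GFPko and 7.73 and 7.45 in GFPfoxp3 cells. Its other probe sets differed by -0.92 (1445068_at) and -0.22 (1456126_at) between GFPfoxp3 and GFPko. The calcineurin subunits Ppp3ca and Ppp3cb and their targets Nfatc1, Nfatc2 and Nfatc3 differed by -0.29 to 0.45 among the 3 populations on the chosen probe sets. Some other probe sets differed by more. Ppp3ca differed by 0.77 between GFPfoxp3 and GFPko on 1452056_s_at, and Nfatc1 by -0.82 between GFPfoxp3 and CD25pos on 1425761_a_at. Neither branch held a call.

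Among the brakes, the opposite ends were Pag1, a membrane adaptor that recruits the inhibitory kinase Csk, and Sla, an adaptor that promotes degradation of the receptor. Pag1 was at 12.05 in CD25neg, 11.24 and 11.59 in CD25pos, 11.43 and 11.25 in GFPko and 10.71 and 10.70 in GFPfoxp3 cells, a difference of -0.63 from GFPko (SE 0.161, limma adjusted p = 0.101). Sla was at 10.88 in CD25neg, 11.64 and 11.83 in CD25pos, 11.81 and 11.43 in GFPko and 12.41 and 12.16 in GFPfoxp3 cells, a difference of 0.66 from GFPko (SE 0.171, adjusted p = 0.104). Both GFPfoxp3 values were the lowest of the sorted arrays for Pag1 and the highest for Sla, and neither gene passed. Of their other probe sets, those of Pag1 were dim and differed by -0.08 and -0.14 from GFPko, while those of Sla differed by 0.79 and 0.16. Ptpn22, a phosphatase that acts on Lck and Zap70, was highest in CD25pos at 10.94 and 11.01, and GFPfoxp3 at 10.47 and 10.46 differed from it by -0.51 (SE 0.0998, adjusted p = 0.0606). The other 7 of the 10 members in this group were Ptprc, Ptpn6, Csk, Cblb, Ubash3a, Dgka and Dgkz. They differed by -0.53 to 0.54 among the 3 populations on the chosen probe sets, with no call.

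Counted over the pathway, 1 of 36 members was lower and 0 were higher in GFPfoxp3 than in GFPko cells, where limma called 7.47% of all genes (5.44% higher and 2.03% lower). Against CD25pos, 2 were lower and 0 higher, with 8.73% of all genes called (5.28% higher and 3.45% lower). Between GFPko and CD25pos 0 of 36 were called, beside 3.48% of all genes (1.25% higher and 2.24% lower), and 4 members had an unadjusted p under 0.05. At that unadjusted threshold stood 10, 15 and 4 of 36 members in the 3 contrasts (27.8%, 41.7% and 11.1%), against 26.0%, 25.6% and 20.3% of all genes. The median absolute difference of the members was 0.28, 0.25 and 0.11 in these 3 contrasts, against 0.21, 0.20 and 0.18 over all genes. With each array centred on its median, GFPfoxp3 moved by -0.15 against GFPko and 4 members were called lower there, Fyn (-0.65, adjusted p = 0.0496), Pag1 (-0.78, adjusted p = 0.0427) and Grap2 (-0.97, adjusted p = 0.0122) beside Themis. That centring also took the share of higher calls among all genes from 72.9% to 51.4% in this comparison and from 35.8% to 51.6% between GFPko and CD25pos.

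**Figure D3:**
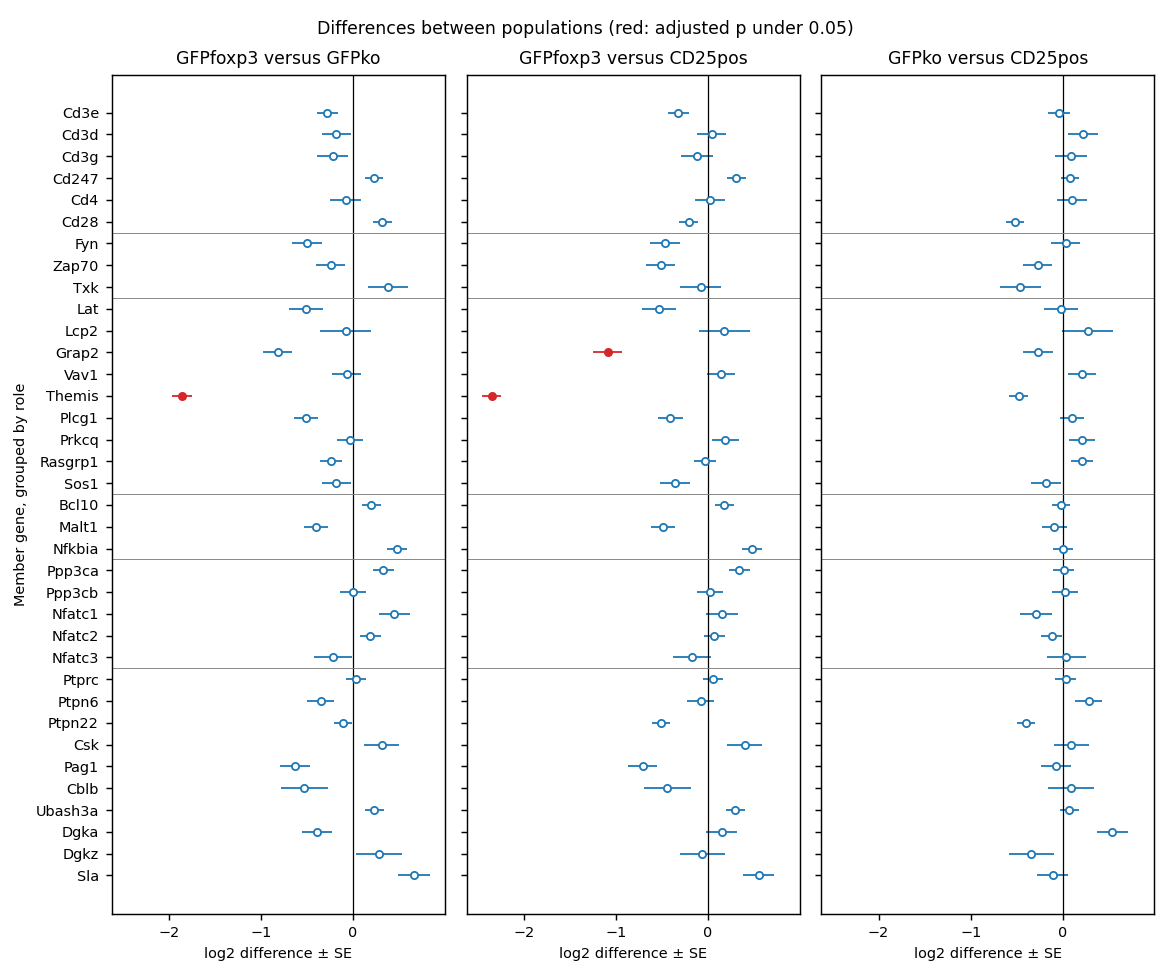
Log2 difference ± SE from limma for each member (rows, grouped by role) in 3 comparisons of sorted populations, each over 2 pairs of arrays. Red points have an adjusted p under 0.05. These are Themis in the left and middle panels (-1.86 and -2.35) and Grap2 in the middle one (-1.09).

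Genes of other cell types moved with these comparisons. Of 8 listed B cell markers 7 had a probe set and 4 were tested, and 3 of these (Cd74, Cd79b and Ighm) were higher in GFPfoxp3 than in GFPko and than in CD25pos cells. The log2 of the summed signal of the 7 was 12.14 and 12.25 in GFPfoxp3, 9.93 and 10.44 in GFPko and 11.13 and 11.21 in CD25pos. Cd79a, Pax5 and Blnk, which define B cells, lay below the array median on all 10 arrays. The NK cell markers Klrd1 and Eomes were both lower in GFPfoxp3 and in GFPko than in CD25pos cells, while Ncr1 was below the median on all arrays. The summed log2 signal of the 3 measured NK markers was 10.07 to 10.19 in CD25pos, 4.79 to 5.39 in GFPko and 4.83 to 5.25 in GFPfoxp3. Their part in the differences of Themis and Grap2 was not tested. In bulk RNA, fewer cells with a transcript and less transcript per cell cannot be told apart.

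Outside the chosen members, 68 of 85 listed genes of the same pathway were measured. Between GFPfoxp3 and GFPko 5 of 68 were higher and 2 lower, beside 5.44% and 2.03% of all genes. Relb, an NF-kappaB subunit (1.41, SE 0.160, limma adjusted p = 0.0232), Ctla4, the inhibitory receptor that competes with CD28 (1.37, adjusted p = 0.0233), and Icos, a costimulatory receptor (1.35, adjusted p = 0.0121), were the largest increases, and Pdpk1, the kinase that activates Akt (-1.25, adjusted p = 0.0349), and Tec, a kinase related to Txk (-0.86, adjusted p = 0.0349), the decreases. Against CD25pos 5 of 68 were again higher and 2 lower, beside 5.28% and 3.45% of all genes. The higher ones included Ctla4 (2.87, adjusted p = 0.00549), the adhesion receptor Cd2 (1.41, adjusted p = 0.0325) and Ubash3b, a phosphatase related to Ubash3a (1.10, adjusted p = 0.0200). The ubiquitin ligase Rnf128 (-1.07, adjusted p = 0.0130) and the phosphatase Ptpn11 (-0.66, adjusted p = 0.0370) were lower. GFPko differed from CD25pos in 2 higher, Ctla4 (1.5, adjusted p = 0.0312) and Tec (1.01, adjusted p = 0.0385), and 2 lower, Rnf128 (-1.59, adjusted p = 0.0166) and Icos (-0.88, adjusted p = 0.0387). Of all genes 1.25% were called higher and 2.24% lower there. Ctla4 is also a marker of regulatory cells.

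Comparisons with CD25neg cells rest on 1 array on each side and have no test, and they share the CD25neg array. GFPfoxp3 cells differed at least 2-fold from CD25neg in 4 of 36 members, beside 10.9% of all genes (7.31% higher and 3.63% lower). Themis (-2.83, 7.13-fold), Grap2 (-1.55) and Pag1 (-1.34) were lower and Sla (1.53) was higher. With the mean of all probe sets of each gene, only Themis of these 4 was past 2-fold. GFPko differed from CD25neg in 1 member, Txk (-1.17), beside 6.73% of all genes (3.93% higher and 2.8% lower), and Themis differed there by -0.92, Grap2 by -0.92 and Sla by 0.93. CD25pos differed from CD25neg in 0 members on the chosen probe sets, beside 7.25% of all genes (5.55% higher and 1.69% lower). The widest member was Pag1 at -0.81. Nfatc1 differed by 0.11 there, but its other probe sets were more than 2-fold higher in CD25pos. They included 1425761_a_at (5.64 against 3.09), 1417621_at (9.31 against 8.16) and 1447084_at (6.49 against 5.39). With the mean of all probe sets, Nfatc1 alone was past 2-fold. Themis thus fell in order from CD25neg to CD25pos, GFPko and GFPfoxp3 among untreated cells, and only the last step exceeded 1 log2 unit.

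No member passed the test for IL-2 in vivo, and few genes of any kind did. Fitted over the 3 populations, limma called 0 of 36 members and 0.235% of all genes (28 higher and 0 lower), and 4 members (11.1%) had an unadjusted p under 0.05, beside 10.6% of all genes. The median absolute difference was 0.16 for the members and 0.12 for all genes. These 4 were Txk (0.61, SE 0.18), Rasgrp1 (0.31, SE 0.0994), Malt1 (-0.48, SE 0.108) and Dgkz (-0.56, SE 0.203), with adjusted p of 0.322 to 0.472. In each population alone, with 1 array per state and no test, 0 members in CD25pos, 2 in GFPko and 0 in GFPfoxp3 differed at least 2-fold, beside 1.35%, 4.92% and 1.95% of all genes. The 2 in GFPko were the brakes Dgkz, which removes the messenger diacylglycerol (12.76 untreated and 11.69 after IL-2, -1.07), and Cblb, a ubiquitin ligase (9.34 and 8.32, -1.02). In CD25pos and GFPfoxp3 cells Dgkz differed by -0.47 and -0.14 and Cblb by -0.05 and -0.43. The other probe sets of these genes did not show the fall in GFPko to that extent. That of Dgkz was at 9.0 untreated and 9.24 after IL-2, and those of Cblb were at 9.50 and 9.29 and at 9.61 and 9.21. Txk (5.83 and 6.75, 0.92) and Lcp2 (11.33 and 12.22, 0.89) were the largest increases in GFPko, where CD25pos differed by 0.78 and -0.12 and GFPfoxp3 by 0.15 and 0.07. The second probe set of Lcp2 also lay higher after IL-2 in GFPko, at 8.04 against 7.52. The median absolute difference of the members was 0.37 in GFPko, 0.12 in CD25pos and 0.13 in GFPfoxp3, against 0.22, 0.13 and 0.12 over all genes. Whether the responses of the populations differ could not be tested, since that difference is the model's only measure of spread. Between untreated and IL-2-treated arrays the Actb 3′ to 5′ difference went from 3.69 to 2.76 in GFPko, from 3.80 to 2.86 in CD25pos and from 3.07 to 2.70 in GFPfoxp3. On the GFPko arrays some markers of other cells were also higher after IL-2. The myeloid Lyz2 went from 3.36 to 5.7 and the NK cell gene Klrd1 from 3.04 to 4.57. The summed log2 signal of the 7 measured myeloid markers went from 5.62 to 6.52, with Cd68 and Itgam below the array median on all arrays. The other listed myeloid and NK cell markers were nearly level or lower, apart from Csf1r. The myeloid Adgre1 went from 3.36 to 3.23, Fcer1g from 3.04 to 3.02 and Tyrobp from 2.15 to 2.13. Csf1r went from 2.32 to 2.74, under the array median. For NK cells, Eomes went from 3.84 to 3.75 and Ncr1 from 2.33 to 2.29. Markers of further cell types moved both ways. The plasma cell gene Xbp1 went from 10.77 to 11.69, Cd8b1 from 4.86 to 5.53 and the B cell gene Cd79b from 5.02 to 5.36. In contrast, Prdm1 went from 7.36 to 7.13 and Ighm from 10.35 to 9.80. The summed log2 signal went from 10.91 to 11.76 for plasma cell markers and from 10.44 to 9.93 for B cell markers. The part of other cells in the GFPko values was not tested.

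**Figure D4:**
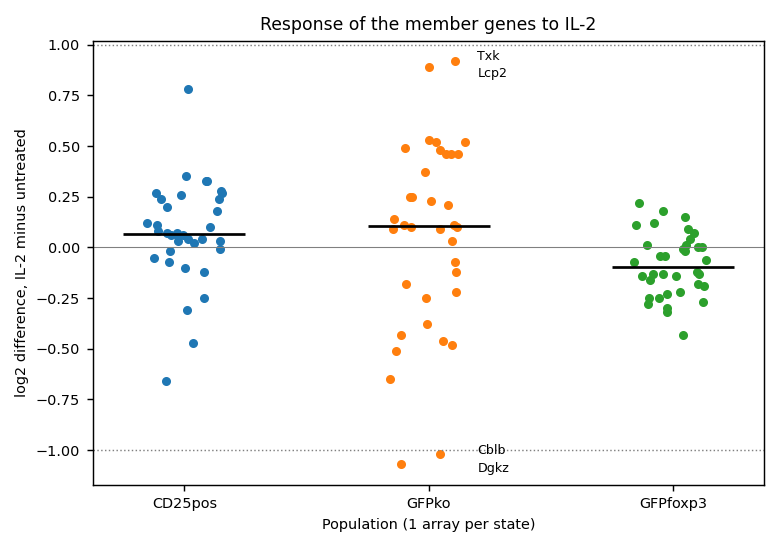
Log2 difference between IL-2-treated and untreated arrays for each of 36 members (points) in 3 populations, with the median as a bar and dotted lines at 2-fold. GFPko shows the widest spread, from -1.07 for Dgkz to 0.92 for Txk, and no member of the other 2 populations reaches 2-fold.

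The 3 transduced groups, cells of regulatory origin that had been activated in culture and recovered from T cell-deficient hosts, stood apart from the sorted cells at many members. All 3 transduced arrays lay below all 7 sorted arrays for 19 of 36 members (52.8%) and above them for 4 (11.1%), against 25.2% and 17.5% of all genes. The members are bright, 35 of 36 being at or above the array median on all 10 arrays. Genes at large needed this on only 1 array to be kept. The part of brightness in these shares was not tested. The median over members of the difference between the transduced and the sorted median was -0.74, and -0.01 over all genes. With arrays centred, which moves the transduced arrays up by 0.32 on average, 16 members were below (44.4%) and 7 above (19.4%), against 15.2% and 31.4% of all genes. Experiment, strain, culture, transfer and the Actb 3′ to 5′ difference all separate the same 3 arrays from the other 7 and cannot be told apart.

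The CD3 chains were not among the lower members. In the order empty vector, PDE3B and H801A, Cd3e was at 12.14, 12.20 and 12.01, Cd3d at 12.52, 12.46 and 12.30, and Cd3g at 12.49, 12.62 and 12.46, all within or just above the range of the sorted cells. Cd4, in contrast, was at 9.29, 8.05 and 8.65 against 10.30 to 10.78 in sorted cells. Cd28 was at 10.36, 10.22 and 10.01 against 11.11 to 11.71 (its other probe set overlapped, at 10.45 to 10.94 against 9.69 to 10.61), and Cd247 at 10.68, 10.28 and 10.40 against 11.00 to 11.77.

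The chosen probe sets of all 3 kinases lay below the sorted cells, beside 25.2% of all genes. Of the 3, Fyn was lower by the least (a difference of medians of -0.96) and Txk by the most (-4.0). Txk was at 2.74, 2.48 and 3.21 in the same order, against 5.83 to 7.14 in sorted cells, and 2 of these 3 values were below the array median. Zap70 was at 8.75, 7.91 and 8.03 against 9.83 to 10.57. Prkcq was at 10.01, 9.76 and 9.73 against 11.54 to 12.11, and Lat at 10.41, 8.87 and 10.21 against 11.38 to 12.22. Themis, at 7.05, 6.89 and 6.25, lay below all sorted cells, GFPfoxp3 included, on its brightest probe set. On 1443192_at the transduced cells were at 5.64, 5.16 and 5.26, above the GFPfoxp3 cells at 4.82 and 4.96. Lcp2 overlapped, at 11.33 to 11.35 against 11.33 to 12.22, but its second probe set lay below all sorted arrays, at 6.92 to 7.36 against 7.47 to 8.04.

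Of the 10 brakes 6 lay below all sorted arrays and 1 above on the chosen probe sets, beside 25.2% and 17.5% of all genes. The 3 that overlapped were Ptprc, Dgkz and Sla (differences of medians of -0.13, 0.25 and -0.33). Each had another probe set that did not overlap. For Dgkz, 1426738_at lay below the sorted cells (7.43 to 8.15 against 8.78 to 9.40). For Sla, 1441761_at lay above them (9.88 to 10.05 against 7.16 to 8.76), as did 1440165_at of Ptprc, while the remaining Sla probe sets overlapped. Ptpn6, the phosphatase SHP-1, was at 6.87, 6.24 and 6.76 against 8.69 to 9.29, and Dgka, which like Dgkz removes diacylglycerol, at 10.82, 10.36 and 10.67 against 12.16 to 13.12. Csk, Pag1, Ubash3a and Ptpn22 were the others below, with medians lower by -1.17, -0.93, -1.12 and -0.61. The 4 members above all sorted arrays were Cblb at 10.71, 10.75 and 10.60 (8.09 to 9.34 in sorted cells), Malt1 at 9.56, 9.96 and 9.65 (7.45 to 8.41), Nfkbia at 14.51, 14.38 and 14.54 (13.51 to 14.14) and Nfatc2 at 9.66, 9.63 and 9.51 (8.85 to 9.16).

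Probe sets of 1 gene often disagreed in this comparison. Of 23 members with 2 or more probe sets above the array median on all arrays, 0 had all of them below the sorted cells, and in 15 at least 1 was below while another was not. For Fyn, 1417558_at was lower in transduced cells (10.20 to 10.39 against 10.81 to 11.82) and 1448765_at higher (10.20 to 10.31 against 9.61 to 10.14). For Cblb, 1458469_at was higher and 1437304_at lower (8.28 to 8.57 against 9.07 to 9.80). For Zap70, 1440178_x_at overlapped the sorted cells (9.24 to 9.64 against 8.74 to 9.33). The Nfkbia probe sets gave 3 of 5 above and 0 below. The other bright probe sets of Malt1, Ptpn6, Pag1 and Ubash3a overlapped the sorted cells. For members with a single probe set, such as Lat, Prkcq, Dgka and Csk, no such comparison was available. The direction for Fyn and Cblb therefore turns with the probe set read.

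**Figure D5:**
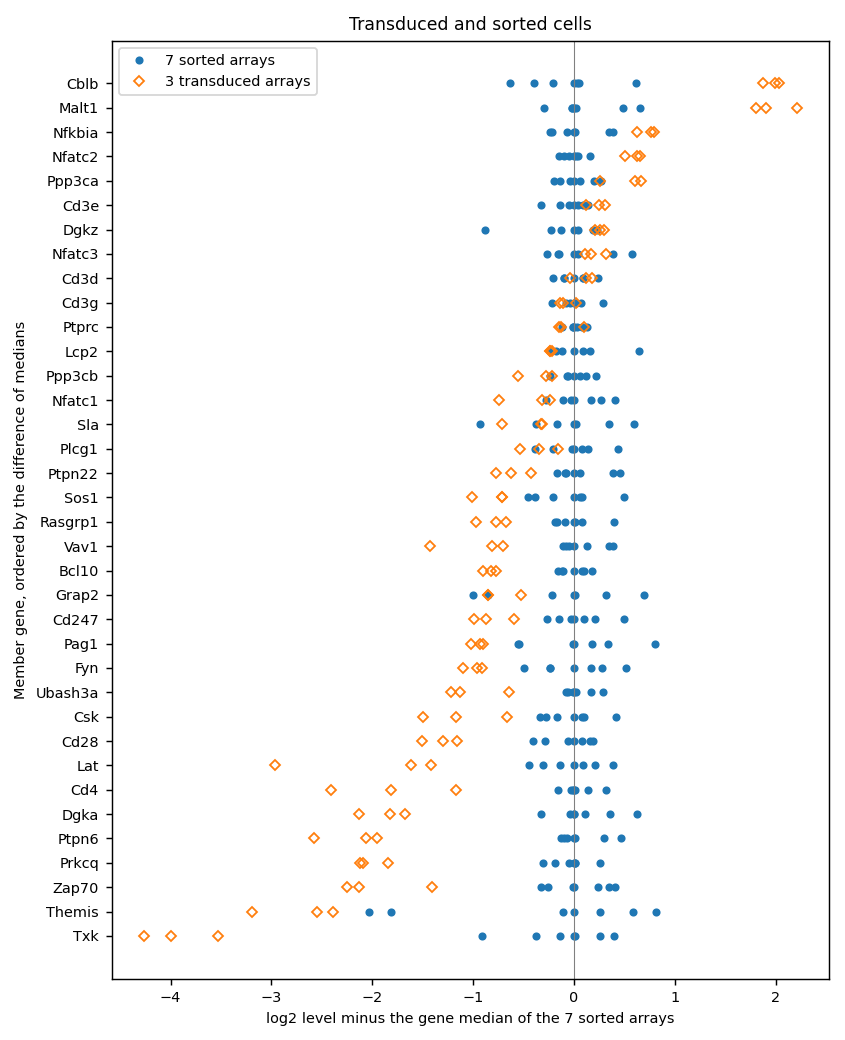
Log2 level of each member on the 7 sorted arrays (blue) and the 3 transduced arrays (orange), minus the gene's median over the sorted arrays, with genes ordered by the difference of medians. Txk, Themis, Zap70, Prkcq and Ptpn6 lie farthest left, the 3 CD3 genes and Ptprc near 0, and Malt1 and Cblb farthest right.

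Between the vectors few members differed, and 1 array per vector allows no test. The comparisons with the empty vector share that array. With PDE3B, 2 of 36 members were at least 2-fold lower than with the empty vector, Lat (8.87 against 10.41, -1.54) and Cd4 (8.05 against 9.29, -1.24), beside 5.44% of all genes (4.25% lower and 1.2% higher). With the mean of each gene's probe sets Cd4 no longer reached 2-fold, while Lat has 1 probe set. With the H801A mutant 0 of 36 were, beside 2.29% of all genes, and the widest member was Themis at -0.80. Directly between PDE3B and H801A, Lat alone was past 2-fold (-1.34), beside 3.04% of all genes (0.737% higher and 2.3% lower). With arrays centred, which moves PDE3B by 0.22 against the empty vector, the same members were counted. The Actb 3′ to 5′ difference was 6.38 with PDE3B, 5.87 with the empty vector and 5.95 with H801A, so the PDE3B array that held the low Lat and Cd4 values also had the largest of these, and its part was not tested.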

How the data were processed

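RNA was amplified in 2 rounds and its labelled copy hybridised to Affymetrix mouse genome arrays, per the labels' protocols. The authors deposited log2 levels for 45101 probe sets, all 10 arrays having been normalized together, per the series' design text. The log2 scale was read from the range of the values (array medians 3.04 to 3.22). The software, background correction and probe summary were not given in the sources consulted. Amplification starts at the 3′ end, so probe sets far from it lose signal first.

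Probe sets annotated to 1 gene (34958) were named through the platform annotation, and 34754 were matched by Entrez ID to GRCm38.p6 symbols. Probe sets at or above the array median on at least 1 array were kept, and the one with the highest mean stood for its gene, which left 11939 genes. limma 3.58.1 in R 4.3.3 fitted population and IL-2 additively over 6 arrays, with 2 residual degrees of freedom. P-values were adjusted by Benjamini-Hochberg over all genes and called under 0.05. The fit was tested on simulated data. Other comparisons have 1 array a side and count genes at least 2-fold apart. Members and lists were chosen with earlier results of these data known. Values are printed for members called at 2-fold, members spanning at least 2 log2 units over the 10 arrays, and Cd3e, Cd4 and Zap70, with others named after their values were seen. Lck, on the same rule, was not analysed here. From the other pathway genes the 3 largest calls each way are named. Alternatives covered scaling, filter, probe set choice, variance model, arrays in the fit and thresholds. Testing each probe set on its own was added after seeing the data.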

Additional observations from a re-analysis of the deposited data

How the results depend on the processing

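No paired analysis was possible because each group holds 1 array and the labels give no replicate numbers to pair. Fitted counts were 1 member for GFPfoxp3 against GFPko, 2 against CD25pos, 0 for GFPko against CD25pos and 0 for IL-2. With arrays centred the first became 4, and without single arrays it ranged from 0 to 1 and the second from 0 to 2. The second fell to 1 with no filter on dim genes or with the mean of all probe sets. The last 2 counts stayed at 0 under each alternative, the added test of single probe sets included. No called member reversed. Among all genes, centring also raised the calls for GFPfoxp3 against GFPko, from 892 to 1373. The pairs of single arrays moved as follows. With the mean of all probe sets the counts were 1 for CD25pos and 1 for GFPfoxp3 against CD25neg (main 0 and 4), 2 for GFPko against CD25neg (main 1) and 1 for PDE3B against the empty vector (main 2). Without probe sets marked for possible cross-matching they were 1 for CD25pos and 2 for GFPko against CD25neg, and centring also gave 2 for the latter. At 3-fold they were 1 for GFPfoxp3 and 0 for GFPko against CD25neg, and 0 for PDE3B against the empty vector and against H801A. Those single pairs have no measure of spread, and a dim gene such as Grap2 has little signal over background.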
